A study of Mus musculus with 6 samples.

Results

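The 10 genes described here encode chemokine receptors or a close relative of them: Cxcr1, Cxcr2, Cxcr3, Cxcr4, Cxcr5, Ccr1, Ccr2, Ccr7, Cx3cr1 and Ccrl2. They were chosen by gene symbol from a table of 29097 genes, and all 10 were among the 10440 genes tested, whose FPKM (fragments per kilobase of transcript, scaled to the mapped reads of the library) averaged 1 or more over the libraries. RNA was taken from peripheral blood (PB) neutrophils of male wild type C57BL/6 mice, 8 weeks old, sorted as CD45+CD11b+Ly6G+ cells and sequenced by Smart-seq2, a full-length cDNA method without molecular identifiers. In the ligature-induced periodontitis (LIP) group, labelled Lig by the submitters, silk was tied around the second molars of both jaws on both sides for 14 d, which inflames the gum, while the control (Ctrl) mice carried no ligature. Each group had 3 libraries, and each library held the pooled neutrophils of 5 mice, so the spread between libraries is that between pools and not between single mice. The comparison asked how the receptor genes of blood neutrophils differed between LIP and Ctrl mice.

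Chemokine receptors are membrane proteins that couple to G proteins and steer leukocytes along gradients of chemokines. In neutrophils CXCR2, the receptor for CXCL1, CXCL2 and related ligands, draws mature cells out of the bone marrow (BM) and into inflamed tissue, whereas CXCR4, the receptor for the stromal chemokine CXCL12, holds them in the marrow and is known to rise again as they age in the circulation. CCR7 and CXCR5 are best known from lymphocytes and dendritic cells, CXCR3 from T and NK cells, and CCR2 and CX3CR1 from monocytes.

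The promoters of Cxcr2 and Cxcr4 are shown because the comparison turns on this pair. Both are 300-base windows from RefSeq on GRCm38.p6, from 250 bases before to 50 bases after the start site, read 5′ to 3′ on the strand of the gene. The Cxcr2 window is chr1:74153744-74154043 on the plus strand, and the Cxcr4 window is chr1:128592250-128592549 on the minus strand. Capitals mark matches on either strand to the motifs searched.
Cxcr2: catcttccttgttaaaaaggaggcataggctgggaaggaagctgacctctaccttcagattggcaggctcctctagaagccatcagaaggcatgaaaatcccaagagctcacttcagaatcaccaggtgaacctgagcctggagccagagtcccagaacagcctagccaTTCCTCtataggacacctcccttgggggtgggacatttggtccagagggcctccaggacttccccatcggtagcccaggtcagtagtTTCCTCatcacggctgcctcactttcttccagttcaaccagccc
Cxcr4: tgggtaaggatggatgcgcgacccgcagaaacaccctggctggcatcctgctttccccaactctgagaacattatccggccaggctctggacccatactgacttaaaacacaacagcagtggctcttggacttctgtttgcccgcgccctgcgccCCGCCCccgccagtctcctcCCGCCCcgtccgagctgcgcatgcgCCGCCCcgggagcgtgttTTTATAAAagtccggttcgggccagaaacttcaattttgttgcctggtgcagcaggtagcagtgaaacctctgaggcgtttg
The Cxcr2 window held the ETS core GAGGAA on the reverse strand with its first base at -81 and at +7 from the start site. The Cxcr4 window held the GC box GGGCGG on the reverse strand at -95, -75 and -50, and the TATA box TATAAA at -30, which overlaps its own match on the reverse strand at -32. RefSeq windows were matched for 8 of the 10 genes, and Cxcr5 and Ccr7 had no entry. GAGGAA was present in 3 of the 8 windows (Cxcr2, Cxcr3 and Ccr1) and in 28.3% of 32851 promoter windows of the same length. GGGCGG was present in 3 of the 8 (Cxcr1, Cxcr4 and Ccrl2) against 35.7% of all windows, and TATAAA in 1 of the 8 against 13.6%. The C/EBP motif TTGCNNAA was in none of the 8 windows and in 10.8% of all windows. These matches describe letters only and were not tested for binding.

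The libraries held 52186555 to 57262379 counts each. Counts of 10 erythroid genes, such as haemoglobin, made up 14.8% to 15.2% of each Ctrl library and 1.57% to 1.63% of each LIP library. Counts of 15 neutrophil marker genes made up 1.66% to 1.79% of each Ctrl library and 5.17% to 5.49% of each LIP library. All 15 neutrophil markers rose, by a median of 1.86 on the log2 scale, and all 12 B cell markers and all 12 T cell markers fell, by medians of 2.59 and 2.48 log2 units. These calls use TMM scaling, explained below, which called 26.5% of all genes tested higher and 27.2% lower. The defining neutrophil genes were present in every library, with mean FPKM in Ctrl and LIP of 6987 and 21792 for S100a8 and of 18.8 and 44.7 for Ly6g. In bulk samples such as these, fewer cells of a type and less RNA per cell cannot be told apart. Each fold change below is therefore given with TMM scaling, a scaling that treats the bulk of genes as equal, and, where it bears on the direction, after scaling on the 15 neutrophil markers so that these do not change on average. The marker lists were chosen with earlier results of these data known. The rise of the 15 markers and the scaling built on them are therefore not independent of these data. The median of all genes tested was -0.09 with TMM, -0.42 with library totals and -1.98 with the neutrophil scaling. Under the neutrophil scaling the 15 markers themselves ran from -0.46 to 0.63, with 1 called higher and 3 lower. That scaling called 0.393% of all genes tested higher and 89.8% lower.

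With TMM scaling, 8 of the 10 receptors were higher in LIP and 2, Ccr7 and Cxcr5, were lower (edgeR quasi-likelihood test, Benjamini-Hochberg adjusted p under 0.05), but 6 of the 8 turned to the opposite sign under the neutrophil scaling. Of these 6, Ccr1 and Ccr2 were not called under that scaling, at -0.12 and -0.16 (edgeR adjusted p = 0.289 and 0.286). Of all genes tested, 26.5% were called higher and 27.2% lower with TMM, 53.6% in all. The median log2 fold change of the 10 receptors was 1.13. In FPKM the groups did not overlap for 9 of the 10 receptors, 7 of them higher and 2 lower in LIP, against 66.1% of all genes tested (21.6% higher and 44.4% lower). Cxcr4 was the receptor whose FPKM overlapped. Scaling to library totals left 6 receptors higher and 2 lower, against 18.2% and 40% of all genes. The neutrophil scaling left 1 higher and 6 lower, against 0.393% and 89.8%. The 6 called lower were Cxcr4, Ccrl2, Cx3cr1, Cxcr3, Ccr7 and Cxcr5.

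**Figure D1:**
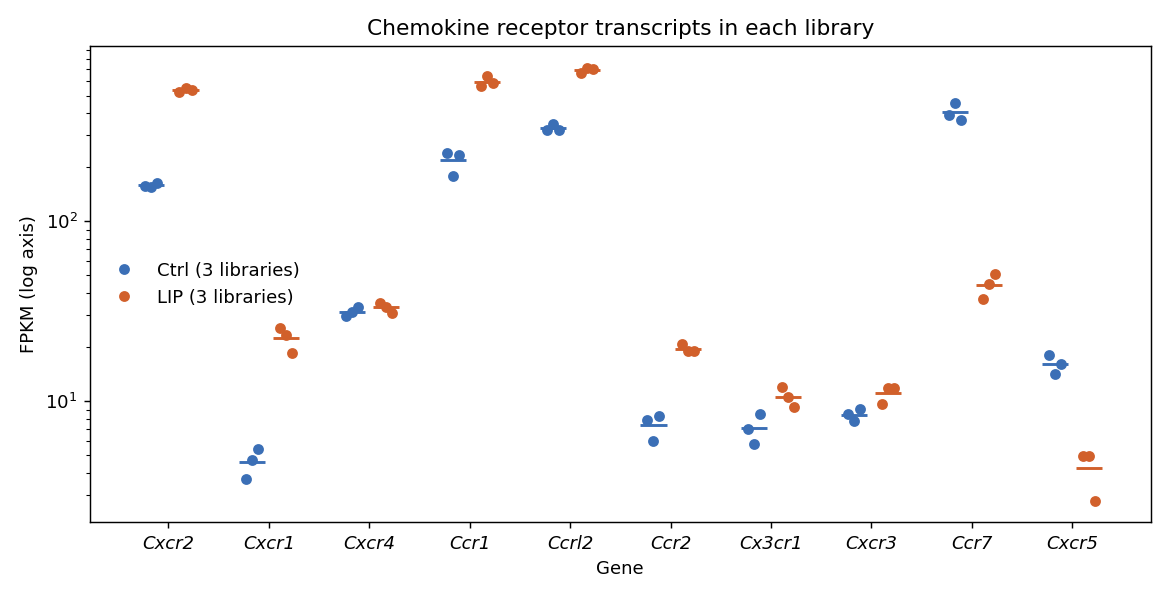
FPKM of the 10 receptor genes in each of the 6 libraries (log axis), with Ctrl and LIP pools as points and each group mean as a short line. Ccr7 lay between 368 and 457 in Ctrl and between 37.1 and 50.7 in LIP, Cxcr2 between 155 and 164 and between 526 and 554, and the Cxcr4 points of the groups overlap.

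In Ctrl libraries Ccr7 had the highest FPKM of the 10, at 406 ± 46.2 (SD, n = 3), followed by Ccrl2 at 330.2 ± 13.9, Ccr1 at 219 ± 33.9 and Cxcr2 at 159 ± 4.67. Cxcr4 came next at 31.5 ± 1.76 and Cxcr5 at 16.1 ± 1.89, and neither overlapped with its neighbours in the order. Cxcr3, Ccr2 and Cx3cr1 lay at 8.44, 7.40 and 7.10 FPKM, with libraries of neighbouring genes overlapping, and Cxcr1 was lowest at 4.61 ± 0.877. In LIP libraries the order was led by Ccrl2 at 694 ± 26.0, Ccr1 at 598 ± 42.0 and Cxcr2 at 538 ± 14.3 FPKM, none of which overlapped with the next. Ccr7 followed at 44.3 ± 6.83, ahead of Cxcr4 at 33.2 ± 2.15, and Cxcr5 was last at 4.24 ± 1.24. Cxcr1 overlapped with Ccr2 in LIP, at 22.5 and 19.6 FPKM, and Cxcr3 overlapped with Cx3cr1, at 11.1 and 10.6 FPKM. Of the summed FPKM of the 10 genes, Ccr7 made up 34.1% in Ctrl and 2.24% in LIP, and Cxcr2 made up 13.4% and 27.2%. The sum itself was 1169 to 1208 FPKM in Ctrl libraries and 1899 to 2062 FPKM in LIP libraries.

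Cxcr2 (chromosome 1, 74153989 to 74161246 on GRCm38, plus strand) had 158, 155 and 164 FPKM in the Ctrl libraries and 526, 554 and 534 FPKM in the LIP libraries. Every LIP library was above every Ctrl library, and the SD within each group was small beside the gap. Its log2 fold change was 2.07 (SE 0.0765, 95% interval 1.896 to 2.236, edgeR adjusted p = 5.31e-08), and 1.4% of the genes tested rose further. Under the neutrophil scaling the log2 fold change was 0.18 (edgeR adjusted p = 0.0609). Set against the mean log2 FPKM of the 15 neutrophil markers in the same library, Cxcr2 was 0.19 log2 units higher in LIP than in Ctrl, with no overlap between the groups.

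Cxcr1, which encodes the closest relative of CXCR2 and lies 30.5 kb from it (chromosome 1, 74191785 to 74194631, minus strand), was far less abundant. It had 3.69, 4.70 and 5.44 FPKM in Ctrl and 25.4, 23.5 and 18.5 FPKM in LIP, without overlap. Cxcr1 rose by a log2 fold change of 2.59 (SE 0.233, edgeR adjusted p = 7.65e-06), the largest rise among the 10 receptors. It was the 1 receptor still called higher under the neutrophil scaling, at 0.70 (edgeR adjusted p = 0.0239). The log2 ratio of Cxcr1 to Cxcr2 was 0.53 higher in LIP and the groups did not overlap (exact permutation p = 0.1, 0.133 after adjustment). They came close, at -4.92 in the highest Ctrl and -4.85 in the lowest LIP library. These genes resemble each other, so reads could be split between them in a way the deposited counts do not show.

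Cxcr4 (chromosome 1, 128588199 to 128592293, minus strand) had 29.8, 31.2 and 33.3 FPKM in Ctrl and 35.2, 33.6 and 30.9 FPKM in LIP. The groups overlapped, and the means of 31.5 ± 1.76 and 33.2 ± 2.15 FPKM differed by about the SD within them. On counts scaled by TMM the log2 fold change was 0.39 (SE 0.126, 95% interval 0.11 to 0.67, edgeR adjusted p = 0.0242), from 55.8 ± 3.65 to 73.0 ± 5.02 CPM (counts scaled to library size), but the same gene stood at 0.06 with library totals (edgeR adjusted p = 0.698) and at -1.49 under the neutrophil scaling (edgeR adjusted p = 1.31e-06). The direction called for Cxcr4 therefore differed with the scaling. It also lost its call when the Ctrl 1, LIP 1 or LIP 2 library was left out, with edgeR adjusted p of 0.0647, 0.0829 and 0.0682.

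The ratio of Cxcr2 to Cxcr4 within a library does not depend on how the libraries are scaled. It was 5.29, 4.96 and 4.93 in Ctrl and 15.0, 16.5 and 17.3 in LIP, so the 2 sets of libraries were far apart. The ratio averaged 5.06 ± 0.202 over Ctrl and 16.2 ± 1.17 over LIP libraries (mean ± SD, n = 3 each). On the log2 scale the difference was 1.68, from 2.34 ± 0.0568 to 4.02 ± 0.106, and the exact two-sided permutation test gave p = 0.1, the smallest value that 3 libraries against 3 allow (0.133 after Benjamini-Hochberg adjustment over the 8 ratios compared). The ratio taken from the counts in place of FPKM differed by 1.68 log2 units and that with 1 added to each FPKM also by 1.68. The medians of the neutrophil, B cell and T cell markers moved beside the ratio, at 1.86, -2.59 and -2.48 log2 units with TMM, and their part in it was not tested.

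**Figure D2:**
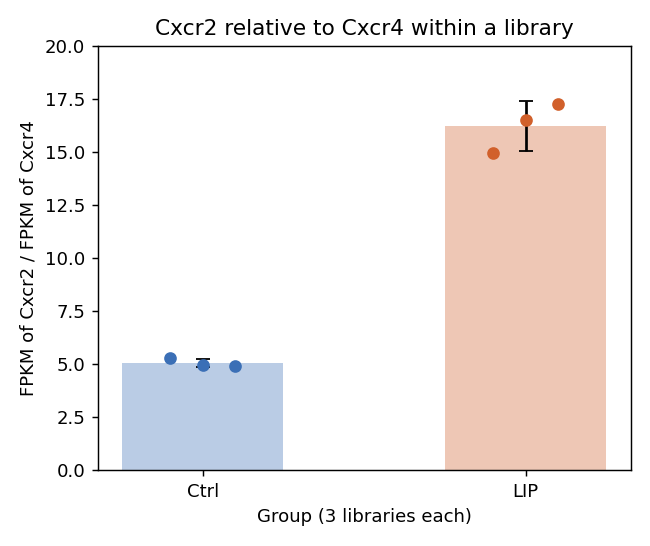
Ratio of Cxcr2 FPKM to Cxcr4 FPKM in each library (linear axis from 0), Ctrl and LIP, as points, with bars at the group mean and error bars of 1 SD. The 3 Ctrl libraries sit between 4.93 and 5.29 and the 3 LIP libraries between 15.0 and 17.3.

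Ccr1 encodes the receptor for CCL3, CCL5 and related chemokines of inflammation. Ccr1 (chromosome 9, 123962124 to 123968692, minus strand) had 241, 179.7 and 235 FPKM in Ctrl and 563, 644 and 586 FPKM in LIP, with no overlap. Its log2 fold change was 1.76 (SE 0.112, edgeR adjusted p = 8.06e-07) with TMM and -0.12 under the neutrophil scaling (edgeR adjusted p = 0.289). The log2 ratio of Cxcr2 to Ccr1 was 0.30 higher in LIP with overlapping groups (exact permutation p = 0.2, 0.229 after adjustment).

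Ccrl2 encodes an atypical receptor that binds chemerin and is not known to signal through G proteins. Ccrl2 (chromosome 9, 111054486 to 111057519, minus strand) had 323, 346 and 321 FPKM in Ctrl and 665, 715 and 702 FPKM in LIP. The groups were apart, and the log2 fold change was 1.38 (SE 0.0778, edgeR adjusted p = 3.94e-07) with TMM but -0.51 under the neutrophil scaling (edgeR adjusted p = 0.000323). Relative to Ccrl2, Cxcr2 was 0.69 log2 units higher in LIP without overlap (exact permutation p = 0.1, 0.133 after adjustment). Against the mean of the 15 neutrophil markers, Ccrl2 was 0.50 log2 units lower in LIP and Ccr1 was 0.11 log2 units lower, the latter with overlapping groups.

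Ccr2, the receptor for CCL2 that brings monocytes out of the marrow, lies 133 kb from Ccr1 on chromosome 9 (124101950 to 124113557, plus strand). It had 7.85, 6.04 and 8.31 FPKM in Ctrl and 20.8, 19.0 and 19.1 FPKM in LIP, with no overlap. The log2 fold change was 1.72 (SE 0.139, edgeR adjusted p = 3.64e-06) with TMM and -0.16 under the neutrophil scaling (edgeR adjusted p = 0.286). The log2 ratio of Ccr1 to Ccr2 differed by 0.04 between groups that overlapped (exact permutation p = 0.8). How reads that match more than 1 gene were assigned is not given in the sources used here.

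Cx3cr1 encodes the receptor for CX3CL1 and marks patrolling monocytes among blood cells. Cx3cr1 (chromosome 9, 119901616 to 120068296, minus strand) had 6.99, 5.82 and 8.50 FPKM in Ctrl and 12.0, 10.6 and 9.25 FPKM in LIP, and the lowest LIP library was just above the highest Ctrl library. Its log2 fold change was 0.89 (SE 0.177, edgeR adjusted p = 0.00182) with TMM and -0.99 under the neutrophil scaling (edgeR adjusted p = 0.000283). In a GENCODE annotation of GRCm38 the antisense gene Gm33858, at a mean of 0.697 FPKM, shares 78 of the 4505 exonic bases of Cx3cr1. That annotation ends Cx3cr1 at 120069879 and the deposited coordinates at 120068296, so the gene model that was counted may differ. Without knowledge of strand in the counting, reads within those 78 bases cannot be told apart. The ratio of Ccr2 to Cx3cr1 was 0.83 log2 units higher in LIP, without overlap (exact permutation p = 0.1, 0.133 after adjustment).

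Monocyte markers were set beside Ccr2 and Cx3cr1. With TMM Ccr2 rose further, at 1.72, than any of the 12 markers, of which the highest was at 1.49. Of the 12 monocyte markers, 8 rose, 1 fell and 3 did not pass, with a median of 0.79 with TMM, but under the neutrophil scaling none rose and 11 fell. Of all genes tested, 26.5% rose and 27.2% fell with TMM, and 0.393% rose and 89.8% fell under the neutrophil scaling. Their summed FPKM was 498 to 588 in Ctrl libraries and 671 to 695 in LIP libraries. None of the 12 was at 0 in all libraries. The most abundant, Nr4a1 and Ly6c2, had log2 fold changes of 0.57 and 0.79. Set against the mean of the monocyte list, Ccr2 was 1.05 log2 units higher in LIP, without overlap, and Cx3cr1 was 0.22 higher with overlap. The part of monocytes in the values of Ccr2 and Cx3cr1 was not tested.

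Cxcr3, the receptor for the interferon-induced chemokines CXCL9 and CXCL10, lies on chromosome X (101731535 to 101734269, minus strand). It had 8.55, 7.73 and 9.04 FPKM in Ctrl and 9.69, 11.8 and 11.9 FPKM in LIP, which did not overlap but came close. The log2 fold change was 0.71 (SE 0.201, edgeR adjusted p = 0.0131) with TMM, 0.38 with library totals (edgeR adjusted p = 0.132) and -1.17 under the neutrophil scaling (edgeR adjusted p = 0.000378). Beside it, the 8 NK cell markers had a median of 0.30, with 3 higher, none lower and 5 that did not pass with TMM, but 8 lower under the neutrophil scaling. Among all genes tested, TMM called 26.5% higher and 27.2% lower, and the neutrophil scaling called 89.8% lower. Their summed FPKM was 493 to 576 in Ctrl and 426 to 467 in LIP. None of the 8 was at 0 in all libraries. The most abundant of them, Nkg7 and Gzma, had log2 fold changes of -0.15 and 0.20 and were not called. Against the NK cell list Cxcr3 was 0.43 log2 units higher in LIP, and against the T cell list 3.11 higher. The part of NK and T cells in the value of Cxcr3 was not tested.

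Ccr7 encodes the receptor for CCL19 and CCL21 that guides lymphocytes and dendritic cells to lymph nodes. Ccr7 (chromosome 11, 99144196 to 99155077, minus strand) had 391.96, 457 and 368 FPKM in Ctrl and 37.1, 45.0 and 50.7 FPKM in LIP. The groups were far apart, and Ccr7 fell by 2.89 on the log2 scale (SE 0.140, edgeR adjusted p = 2.04e-07). It was lower by either other scaling too, at -3.22 with library totals and -4.78 under the neutrophil scaling. The log2 ratio of Ccr1 to Ccr7 was 4.66 higher in LIP (exact permutation p = 0.1, 0.133 after adjustment).

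Cxcr5, which encodes the CXCL13 receptor that places B cells in follicles, had 17.97, 14.2 and 16.2 FPKM in Ctrl and 4.97, 4.93 and 2.81 FPKM in LIP. The gene lies on chromosome 9 (44511787 to 44561877, minus strand). It fell by 1.61 on the log2 scale without overlap (SE 0.232, edgeR adjusted p = 0.00021), and was at -1.95 with library totals and -3.50 under the neutrophil scaling. The ratio of Ccr7 to Cxcr5 was 1.23 log2 units lower in LIP (exact permutation p = 0.1, 0.133 after adjustment). In the same GENCODE annotation Bcl9l on the opposite strand, at a mean of 1.12 FPKM, shares 110 exonic bases with Cxcr5.

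The lymphocyte markers moved the same way as Ccr7 and Cxcr5. The summed FPKM of the 12 B cell markers was 2121 to 2296 in Ctrl libraries and 267 to 305 in LIP libraries, with Cd79a and Cd79b the most abundant, at log2 fold changes of -2.63 and -2.61. That of the 12 T cell markers was 397 to 429 in Ctrl and 67.9 to 78.1 in LIP, led by Trbc2 and Lck at -2.50 and -1.32. None of these 24 markers was at 0 in all libraries. Relative to the mean of the B cell list, Ccr7 was 0.31 log2 units lower in LIP with overlapping groups and Cxcr5 was 0.92 log2 units higher without overlap. Relative to the T cell list, Ccr7 was 0.48 log2 units lower and Cxcr5 0.75 log2 units higher, both without overlap. The part of lymphocytes in the values of Ccr7 and Cxcr5 was not tested.

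**Figure D3:**
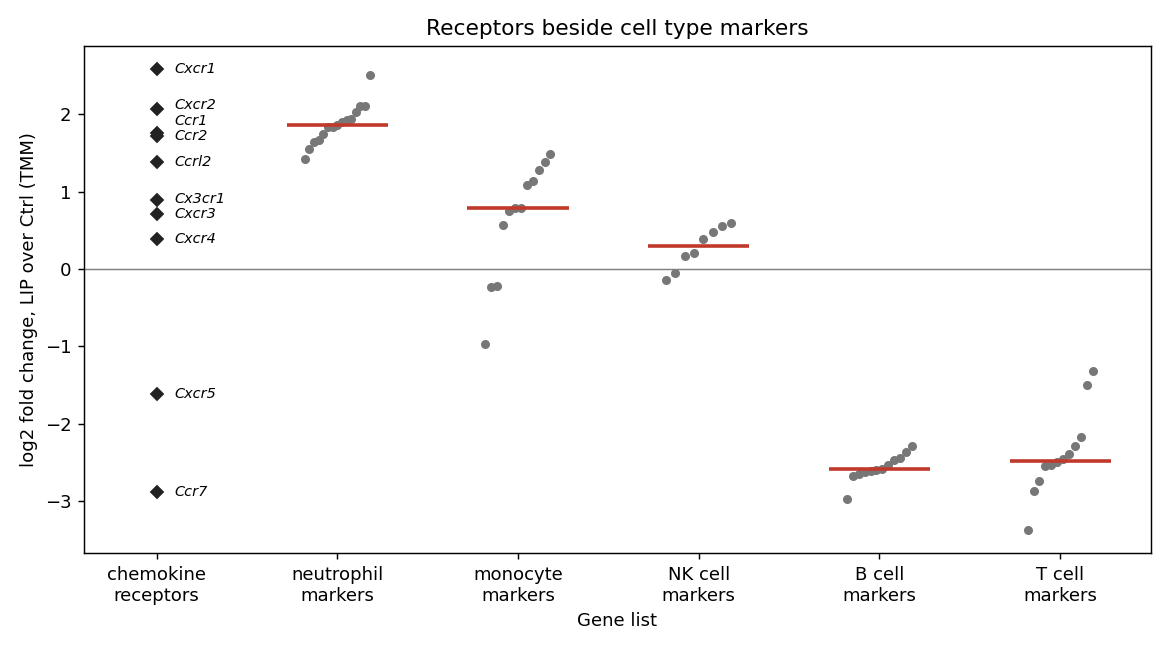
Log2 fold change (LIP over Ctrl, TMM) of each receptor (diamonds) beside each neutrophil, monocyte, NK, B and T cell marker (grey points), with the median of each marker list as a red line. Ccr7 at -2.89 sits near the B and T cell medians of -2.59 and -2.48, Cxcr5 at -1.61 sits above all 12 B cell markers, and Cxcr2 at 2.07 near the neutrophil median of 1.86. Under the neutrophil scaling 6 of the 8 receptors above 0 here turn negative, of which Ccr1 and Ccr2 were not called.

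**Figure D4:**
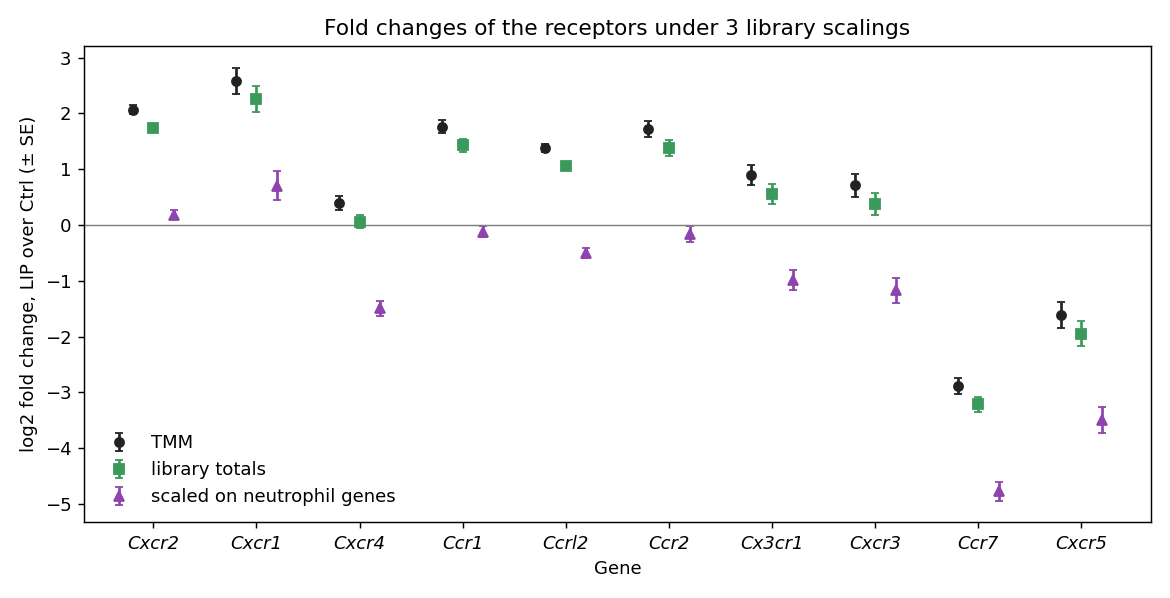
Log2 fold change (LIP over Ctrl, points with SE as bars) of each receptor with TMM, library totals and the neutrophil scaling. Ccr7 and Cxcr5 are below 0 by all 3, Cxcr1 and Cxcr2 above 0 by all 3, and Cxcr4 goes from 0.39 to 0.06 and -1.49.

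Of 15 other chemokine receptors and decoy receptors, 3 reached a mean FPKM of 1, and 2 of these fell with TMM. Ccr6, the CCL20 receptor, had 11.03, 12.95 and 7.55 FPKM in Ctrl and 2.99, 2.69 and 2.36 FPKM in LIP, a log2 fold change of -1.65 (SE 0.263, edgeR adjusted p = 0.000421). Cxcr6, the CXCL16 receptor, had 3.07, 5.54 and 4.01 FPKM in Ctrl and 1.40, 1.01 and 0.219 FPKM in LIP, a log2 fold change of -1.95 (SE 0.583, edgeR adjusted p = 0.0165), and was not called without the Ctrl 2 library (edgeR adjusted p = 0.0691). Ccr3, known from eosinophils, was at 0.66 and was not called with TMM (edgeR adjusted p = 0.179), but was lower under the neutrophil scaling, at -1.20 (edgeR adjusted p = 0.0148), where all 3 tested genes of this list were called lower. The other 12 were below a mean FPKM of 1. Among all genes tested, 27.2% were called lower with TMM and 89.8% under the neutrophil scaling.

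Of 29 chemokine ligand genes, 14 were tested, 11 rose, none fell (0 also at an unadjusted edgeR p under 0.05, and 0 by DESeq2) and the median log2 fold change was 1.21 with TMM, but under the neutrophil scaling none rose and 9 fell. With library totals Ccl5 was called lower, at -0.39 (edgeR adjusted p = 0.00546). It had 281, 310 and 281 FPKM in Ctrl and 231, 228 and 214 FPKM in LIP, and was at -0.06 with TMM (edgeR adjusted p = 0.606). Cxcl1, Cxcl2 and Cxcl3, which encode some of the ligands of CXCR2, rose most of the 14. Cxcl1 had a log2 fold change of 1.82, Cxcl2 of 1.77 and Cxcl3 of 1.61 (edgeR adjusted p = 3.47e-06, 5.31e-08 and 0.000679), and under the neutrophil scaling they were at -0.06, -0.11 and -0.27. Cxcl12, the ligand of CXCR4, was not among the genes tested, with 0.0146 FPKM in 1 Ctrl library and 0 in the others. Of 19 genes of receptor signalling, 18 were tested, 11 rose and 1 fell, with a median of 0.98, but under the neutrophil scaling none rose and 16 fell. Beside both lists, 26.5% of all genes tested rose and 27.2% fell with TMM. Under the neutrophil scaling 0.393% of all genes rose and 89.8% fell. Pik3r6 and Pik3r5, regulatory subunits of PI3K gamma, had log2 fold changes of 1.91 and 1.32 with TMM, and Arrb2, the beta-arrestin that uncouples and internalises receptors, of 1.38. Under the neutrophil scaling Pik3r6 was at 0.04 and was not called (edgeR adjusted p = 0.885). Pik3r5 and Arrb2 were called lower there, at -0.55 and -0.50 (edgeR adjusted p = 0.0154 and 0.00958). Grk6, a kinase that phosphorylates active receptors, fell by 0.38 (SE 0.145, edgeR adjusted p = 0.0457), from 33.4, 26.1 and 38.7 FPKM to 21.3, 20.1 and 19.5 FPKM. Grk6 lost its call without any 1 library other than Ctrl 2 (edgeR adjusted p = 0.0597 to 0.21).

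Among the 3382 genes averaging 10 FPKM or more, those whose centred log2 CPM over the 6 libraries lay closest to Cxcr2 were Cd244a, Osm, Siglece, Mcemp1 and Ifitm6, at root mean square differences of 0.0489 to 0.0788. Their log2 fold changes were between 1.93 and 2.16 with TMM. Those closest to Cxcr4 were Cmpk1, Atxn2l, Ppp1cc, Tpm3 and Rer1, at differences of 0.0462 to 0.0654 and fold changes between 0.33 and 0.47. With 6 libraries in 2 groups, genes with a similar group difference come out close by this measure.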

How the data were processed

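RNA was measured in 6 libraries of sorted mouse PB neutrophils, 3 Ctrl and 3 LIP, each a pool of 5 mice. Per the study's methods, reads were paired-end with 150 bases; cutadapt 1.9, FastQC and GRCm38 are named in the submitters' processing notes, and the aligner, counter and use of strand are not given in the sources used here. The authors deposited raw counts and FPKM values per gene in 1 table, with 0 columns of other samples. For 50 symbols on several rows, the row with the highest mean FPKM was used. Counts were tested with edgeR 4.0.16 (R 4.3.3) by the quasi-likelihood test with TMM and a mean FPKM of at least 1. Alternatives were library totals, DESeq2 size factors and DESeq2 1.42.0, scaling on 15 neutrophil markers, limma 3.58.1 on log2(FPKM + 1) and log2(FPKM + 0.1), other filters, a replicate block, and fits without 1 library in turn. Adjusted p-values of the main fit cover all 10440 genes tested. Fits with another filter were adjusted over their own genes: 29097 with no filter, 16402 with filterByExpr and 5328 with a mean FPKM of at least 5. The permutation p-values of the ratios were adjusted over the 8 ratios. The members and gene lists were chosen with earlier results of these data known. Named were all members, the 3 highest and 3 lowest called genes without overlap of each receptor, ligand and signalling list, the 2 most abundant of each cell type list and the 5 genes most alike Cxcr2 and Cxcr4. Ccr3, Ccl5, Cxcl12, Ly6g and neighbouring or overlapping genes were named for context after their values were seen. On simulated counts for the LIP against Ctrl comparison, 45.5% of 112 genes changed by log2 1 and 86.4% of 88 genes changed by log2 2 were recovered, and 5.93% of calls were false, over 10440 genes. In the simulation only these genes changed, in directions drawn at random, whereas 53.6% of genes were called in the real data. Its share of false calls therefore does not cover errors that come from the scaling. No pair of libraries within a group agreed within sampling noise. Without molecular identifiers, the counts are reads and not independent molecules. The precision is set by 3 pools a group.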

Additional observations from a re-analysis of the deposited data

How the results depend on the processing

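Of 160 results (10 receptors under 16 alternatives), 145 kept direction and side of the threshold, 9 lost the call and 6 reversed. The 6 reversals came with scaling on the neutrophil markers, which by construction lowers genes that rose less than these: Ccr1 -0.12, Ccr2 -0.16, Ccrl2 -0.51, Cx3cr1 -0.99, Cxcr3 -1.17 and Cxcr4 -1.49. Of these reversals, those of Ccr1 and Ccr2 were not called (edgeR adjusted p = 0.289 and 0.286). Scaling on the neutrophil markers also gave 1 receptor higher and 6 lower (Ccr7 and Cxcr5 among them), 41 genes higher and 9380 lower of all tested, 0 ligands higher and 9 lower, and 0 signalling genes higher and 16 lower. A mean FPKM of at least 5 left 1761 genes higher, as fewer genes were tested. One other receptor was lower with no filter and with that filter (1 in each), and 1 to 2 were lower when a library was left out (1 without Ctrl 2, where Cxcr6 was lost). One ligand was lower with library totals (Ccl5), with limma at either pseudocount and with a mean FPKM of at least 5 (1 in each). Grk6, at -0.38 with TMM, lost its call but not its sign with DESeq2 size factors (-0.34), with no filter (-0.35), with filterByExpr (-0.34) and with the replicate block (-0.37), so 0 signalling genes were lower in each, and it passed at -0.71 with library totals and -0.65 with limma on log2(FPKM + 1) (adjusted p = 0.00243 and 0.00377), and the number was 0 to 1 when a library was left out (0 except without Ctrl 2). The cause was not tested. Cxcr4 passed in its reported direction in 8 of 16 alternatives, with adjusted p of 1.31e-06 (reversed) to 0.698, Cxcr3 in 14 of 16 (0.000378, reversed, to 0.132), and Cxcr2 in 15 of 16 (2.78e-111 to 0.0609). The Cxcr2 to Cxcr4 log2 ratio differed by 1.63 to 1.74 when a library was left out.

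Replicate numbers were not taken as pairs in the main fit, as each group had its own pools of mice. Same-numbered libraries correlated at 0.0133 to 0.0521, others at -0.047 to 0.0227. With 3 pools a group, these values cannot decide whether libraries of the same number were handled together. With the replicate block, 8 receptors were higher and 2 lower, 2724 genes were higher and 2822 lower in all, Cxcr4 stood at 0.39 (edgeR adjusted p = 0.0369), and the paired log2 ratio differed by 1.68 (exact sign-flip p = 0.25, the smallest for 3 pairs). Depth was similar in all libraries, and low receptors such as Cxcr1 in Ctrl, at a few FPKM, are the least precise.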

Other observations

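Markers of other blood cells were also measured in the sorted samples, and the source of these transcripts was not tested. All 8 platelet markers rose with TMM, by a median of 1.24, and their summed FPKM was 234 to 287 in Ctrl and 469 to 582 in LIP, led by Gp9 and Tubb1 at log2 fold changes of 1.27 and 1.39. All 10 erythroid genes fell, by a median of 2.96, led by Hba-a1 and Hba-a2 at -2.80 and -2.89. Of 12 genes of early neutrophil stages 7 were tested, 4 rose and none fell, with a median of 0.39, and the most abundant, Ngp and Camp, had log2 fold changes of 0.81 and 0.39. The 4 dendritic cell markers tested of 8 all rose, by a median of 1.62, at a summed FPKM of 9.99 to 13.3 in Ctrl and 21.0 to 25.2 in LIP, and Cd209a and Itgax were at 1.49 and 1.12. Of 8 eosinophil and basophil markers 5 were tested, 1 rose and 1 fell, with a median of 0.59, and Siglecf and Mcpt8 were at 1.44 and 0.42, the latter not called. These directions are those with TMM, and under the neutrophil scaling 0 genes of these lists rose while 7 of the platelet, 10 of the erythroid, 7 of the early neutrophil, 1 of the dendritic cell and 4 of the eosinophil and basophil markers fell (edgeR). Among all genes tested, 26.5% rose and 27.2% fell with TMM, and 0.393% rose and 89.8% fell under the neutrophil scaling.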
